A study of Mus musculus with 24 samples.

Results

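The unfolded protein response and the chaperones of the endoplasmic reticulum (ER) were followed across the epithelium of mouse colon and ileum as a list of 36 genes. The genes were taken by symbol, and all 36 were present among the 24421 genes of the table. No threshold on their values was used. RNA had been sequenced from sorted intestinal epithelial cells of 12 mice, with colon and ileum of each mouse as separate libraries, 24 in all. The series title names macrophages that lack the IL-10 receptor α chain and an epithelial response driven by IL-22, while its design text speaks of colonic macrophages. Every sample is labelled as epithelium.

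All mice were C57BL/6, aged 8 to 14 weeks, and all cells were sorted as negative for the leukocyte marker CD45 and positive for a tomato reporter tied to Villin, a protein of the epithelial brush border. KO early denotes KO mice 2 weeks after chimerism (n = 4, mice 100, 117, 118 and 120), and KO late denotes KO mice 8 weeks after it (n = 3, mice 49, 50 and 57). WT irradiated mice were also taken at 8 weeks (n = 2, mice 59 and 61), and WT non-irradiated mice carry no time label (n = 3, mice 72, 73 and 75). The labels write only KO and name neither the deleted gene, the cells that lack it nor the donor. WT irradiated is thus the only control with a matched time, for KO late, and it rests on 2 mice. Each mouse gave 1 library per tissue, and p-values below measure the spread between mice.

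Proteins that are secreted or sit in membranes are folded in the ER by chaperones, joined by disulfide bonds, and removed to the proteasome if they fail. When unfolded proteins build up, IRE1, PERK and ATF6 signal from the ER membrane. IRE1 splices the messenger of the transcription factor XBP1, PERK slows translation and favours that of ATF4, and ATF6 is cut in the Golgi to release a transcription factor. In the gut this pathway is known above all from goblet and Paneth cells, which secrete large amounts of protein.

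The ER stress response element, the site through which ATF6 and XBP1 are known to act together with the factor NF-Y, links many of these genes, so its copies are shown here before the values. RefSeq promoter windows of build GRCm38.p6, from 250 bases before to 50 bases after a start site, matched 30 of the 36 genes, leaving Hyou1, Manf, Derl1, Ern2, Atf6 and Sec61a1 unmatched. The letters CCAAT, then any 9 bases, then CCACG, searched on both strands, stood in the windows of 10 of these 30 genes (33.3%) and of 37 of all 27025 genes with a window (0.137%). The 11 copies follow, 5′ to 3′ on the strand on which the element reads, with the element in capitals and 6 bases on each side.

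Hspa5: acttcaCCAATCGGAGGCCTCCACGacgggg
Hsp90b1: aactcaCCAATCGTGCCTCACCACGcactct
Hsp90b1: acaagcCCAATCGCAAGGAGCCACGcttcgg
Calr: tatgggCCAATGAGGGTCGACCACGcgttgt
Canx: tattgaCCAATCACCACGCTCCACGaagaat
Pdia6: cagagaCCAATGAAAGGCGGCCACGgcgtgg
Dnajc3: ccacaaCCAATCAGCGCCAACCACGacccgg
Creld2: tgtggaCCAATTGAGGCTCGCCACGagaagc
Syvn1: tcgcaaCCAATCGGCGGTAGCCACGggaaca
Derl3: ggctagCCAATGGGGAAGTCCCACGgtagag
Ero1lb: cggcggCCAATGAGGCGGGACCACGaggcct

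Hsp90b1 is listed with both of its copies. In GRCm38.p6 they lay at chr2:34772019-34772049 on the plus strand for Hspa5, chr10:86705527-86705557 on the plus strand for Hsp90b1, chr10:86705632-86705662 on the minus strand for Hsp90b1 and chr8:84847069-84847099 on the plus strand for Calr. The next were at chr11:50325794-50325824 on the minus strand for Canx, chr12:17266485-17266515 on the plus strand for Pdia6, chr14:118937821-118937851 on the plus strand for Dnajc3 and chr15:88819514-88819544 on the minus strand for Creld2. The last were at chr19:6046526-6046556 on the plus strand for Syvn1, chr10:75893236-75893266 on the minus strand for Derl3 and chr13:12565676-12565706 on the minus strand for Ero1lb. These coordinates include the 6 bases on each side. The copies lay between 26 bases (Syvn1) and 212 bases (Hsp90b1) before the start site. The 250 bases before the start of Hspa5, the gene of the chaperone BiP and the classic target of the response, read as follows on the plus strand at chr2:34771840-34772089 of GRCm38.p6, with the full element in capitals.

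Hspa5 promoter: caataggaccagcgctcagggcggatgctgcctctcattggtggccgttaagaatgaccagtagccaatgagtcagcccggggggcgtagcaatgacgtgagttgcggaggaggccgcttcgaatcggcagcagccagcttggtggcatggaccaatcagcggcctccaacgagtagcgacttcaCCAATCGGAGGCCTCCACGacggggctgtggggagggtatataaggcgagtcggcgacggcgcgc

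The shorter element known as ERSE-II, ATTGG, any base and CCACG, stood in the windows of Dnajb11 and Herpud1 (6.67% of members against 0.0444% of genes). It is shown for Herpud1, an ER membrane protein of the degradation pathway, where it lay at chr8:94386371-94386393 on the plus strand and read as follows, with the element in capitals.

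Herpud1: gcgctgATTGGGCCACGttggac

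The letters TGACGTGG, a binding site of XBP1, stood in no member window and in 0.714% of genes. The core TGATGNAA, through which ATF4 acts with C/EBP factors, stood in Herpud1 and Trib3 (6.67% against 4.51%). These are matches of letters in a window, on a build other than the mm9 of the expression table.

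Libraries held 8.32 to 18.7 M reads assigned to genes, of which the ribosomal precursor Rn45s took 0.064 to 29.4%. Values are given as normalised reads, in which each library's reads had been scaled by 1 size factor, and levels are not compared between genes because they are not corrected for length. The epithelial markers Vil1 (10193 to 80532 normalised reads) and Epcam (12262 to 35668) were high in every library. All 7 colon markers in the table were higher in colon and all 8 ileum markers higher in ileum. Summed over each list, the colon libraries held 284 to 805 normalised reads of 10 leukocyte genes, 273 to 1038 of 8 myeloid genes and 31.8 to 145 of 6 plasma cell genes. Mzb1, a defining marker of plasma cells, reached 5.7 at most in any library. Genes of olfactory and vomeronasal receptors, used as a gauge of background reads, took 232 to 682 per M reads in WT colon, 429 to 693 in KO early colon and 752 to 1052 in KO late colon. Each fold change was taken from log2(value + 1) and stands with its standard error (SE). A gene was called at an adjusted p under 0.05, from limma with Benjamini-Hochberg adjustment over all genes tested. Of the 36 members, 35 reached 10 normalised reads in 2 or more libraries and were tested in every comparison.

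Colon and ileum differed in the level of this machinery. Of the 35 members tested, 18 were lower and 2 higher in colon than in ileum, while 33.5% of all 19588 genes tested were called (18.5% lower and 15% higher). The median over the members was -0.49, against 0.04 over all genes and -0.08 over genes averaging 100 normalised reads or more. The lower genes took in BiP and 3 of its cofactors (Hyou1, Manf and Dnajc3), Hsp90b1, both lectin chaperones, the disulfide isomerases P4hb and Pdia6, 4 degradation genes and the transcription factors Xbp1 and Atf4. Colon and ileum came from the same mice, and with the mouse as a block limma called 26 members, adding Creld2, Sdf2l1, Pdia4, Ssr3 and Dnajb11 as lower and Herpud1 as higher (Benjamini-Hochberg adjusted p from 0.0033 to 0.0365). Ppp1r15a and Ern2 were the genes that stood higher in colon. Paneth markers were lower in colon in 8 of 10 genes, and in bulk libraries fewer cells of a type and less RNA per cell cannot be told apart.

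**Figure D1:**
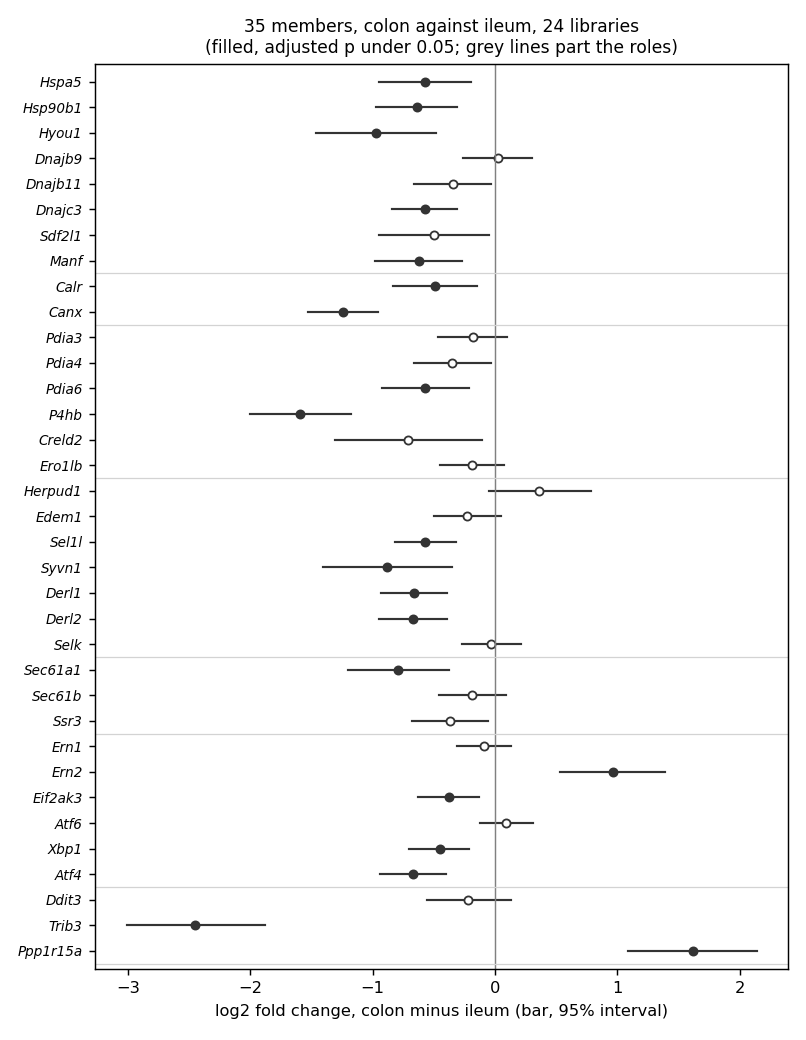
Log2 fold change of colon against ileum for 35 members (points, with 95% intervals as bars), ordered by role, from limma over 24 libraries; the zero line marks equal levels. Filled points are the 20 members with an adjusted p under 0.05, with Trib3 at -2.45 and Ppp1r15a at 1.62 at the ends.

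Among the Hsp70 and Hsp90 chaperones and their cofactors, 5 of 8 were lower in colon. Values follow in the order of mouse numbers within a group. For Hspa5 (BiP), the Hsp70 of the ER, colon had 5004, 4698 and 2359 normalised reads in WT non-irradiated, 4451 and 3079 in WT irradiated, 5207, 11401, 9158 and 6869 in KO early and 5418, 4765 and 7758 in KO late mice. Its ileum libraries had 7229, 5389 and 5847 normalised reads in WT non-irradiated, 9582 and 9028 in WT irradiated, 11073, 6076, 6072 and 8489 in KO early and 5999.5, 5116 and 12419 in KO late mice. Every WT colon library lay below every WT ileum library, while colon and ileum overlapped in both KO groups. The log2 fold change was -0.57 ± 0.18 (SE; limma, Benjamini-Hochberg adjusted p = 0.0175), and the call was lost without WT irradiated mouse 61 (-0.52, adjusted p = 0.0871).

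Hsp90b1, the Hsp90 of the ER, had 5739, 4172 and 2914 normalised reads in WT non-irradiated, 4286 and 3457 in WT irradiated, 4984, 11065, 7513 and 6391 in KO early and 6179, 4869 and 6972 in KO late mice in colon. In ileum it had 8908, 5856 and 7835 normalised reads in WT non-irradiated, 8762 and 9534 in WT irradiated, 9541, 6542, 6451 and 8236 in KO early and 6453, 6063 and 11989.7 in KO late mice. WT colon again lay below WT ileum in every library, and the change was -0.64 ± 0.16 (limma, Benjamini-Hochberg adjusted p = 0.0026). Hyou1, which exchanges nucleotide on BiP, was lower by the widest margin in this role (-0.97 ± 0.24), ahead of Manf, a BiP-binding protein that is also secreted (-0.62 ± 0.17), and Dnajc3, a J-domain cofactor (-0.57 ± 0.13).

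Sdf2l1, a partner of the BiP cofactor Dnajb11, had 238, 218 and 101 normalised reads in WT non-irradiated, 199 and 102 in WT irradiated, 218, 308, 391 and 214 in KO early and 152, 119 and 267 in KO late mice in colon. Ileum had 381, 185 and 174 normalised reads in WT non-irradiated, 340.4 and 278 in WT irradiated, 399, 156, 239 and 284 in KO early and 274, 164 and 368 in KO late mice. The tissues overlapped, and at -0.50 ± 0.22 the difference missed the threshold without the block (limma, Benjamini-Hochberg adjusted p = 0.0834) and passed with it (adjusted p = 0.0147), as for Dnajb11 (-0.34 ± 0.15, adjusted p = 0.093 and 0.0365). Dnajb9, a J-domain cofactor of BiP and a target of spliced XBP1, had 646, 687 and 458 normalised reads in WT non-irradiated, 508 and 392 in WT irradiated, 335, 424, 333 and 535 in KO early and 477, 649 and 519.8 in KO late mice in colon. Ileum had 359.7, 391 and 542 normalised reads in WT non-irradiated, 595 and 436 in WT irradiated, 654, 386, 302 and 481 in KO early and 583, 533 and 594 in KO late mice. Its difference was 0.02 ± 0.14, with a 95% interval from -0.26 to 0.30.

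Both lectin chaperones, which hold glycoproteins until they are folded, were lower in colon. Canx, calnexin, had 5763, 4870.5 and 4388 normalised reads in WT non-irradiated, 4357 and 4546 in WT irradiated, 5642, 8726, 6696 and 6481 in KO early and 5058, 3890.5 and 6301 in KO late mice in colon. Ileum had 12322, 8736 and 14672 normalised reads in WT non-irradiated, 13127 and 16093 in WT irradiated, 15121, 9604, 9877 and 10626 in KO early and 10813, 9739 and 18997 in KO late mice. The highest colon library (8726) lay under the lowest ileum library (8736), and the change was -1.24 ± 0.14 (2.37-fold; limma, Benjamini-Hochberg adjusted p = 1.58e-07). Canx and Trib3 were the 2 members of 35 with no overlap between the 12 colon and 12 ileum libraries, where 3.81% of all genes were lower in every colon library and 3.06% higher. Calr, calreticulin, was lower by 0.49 on the log2 scale (limma, adjusted p = 0.0249), a call that was lost in 5 of 21 settings, each time by leaving out 1 mouse.

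Of 6 enzymes of disulfide formation, P4hb and Pdia6 were called. P4hb, the classic protein disulfide isomerase, had 5689, 4185 and 2995 normalised reads in WT non-irradiated, 4141 and 3327 in WT irradiated, 6269, 5773, 9873 and 6551 in KO early and 4277, 5298 and 10609.8 in KO late mice in colon. Ileum had 14816, 11442 and 15058 normalised reads in WT non-irradiated, 18792 and 16694 in WT irradiated, 29973, 8078, 12238 and 13270.3 in KO early and 17119, 12214 and 20084 in KO late mice. Each mouse had less in colon, and the change was -1.59 ± 0.20 (3.01-fold; limma, Benjamini-Hochberg adjusted p = 7.07e-07). Pdia6 was at -0.57 ± 0.17 (adjusted p = 0.0124), a call lost without WT irradiated mouse 61 (adjusted p = 0.0764). Pdia3, the isomerase that works with the lectin chaperones, was at -0.18 ± 0.14, Pdia4 at -0.35 ± 0.15 and Ero1lb, an oxidase that recharges the isomerases, at -0.19 ± 0.13. Creld2, a stress-induced ER protein, was at -0.71 ± 0.29 (adjusted p = 0.0643, and 0.0033 with the block), and Pdia4 too passed with the block (adjusted p = 0.0289).

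In ER-associated degradation, 4 of 7 tested members were lower in colon. Syvn1, the ubiquitin ligase HRD1 at the centre of the pathway, was at -0.88 ± 0.25, and its partner Sel1l at -0.57 ± 0.12. The membrane proteins Derl1 (-0.66 ± 0.13) and Derl2 (-0.67 ± 0.13) moved with them, with adjusted p from 0.000302 to 0.00947 over the 4 genes. Herpud1 had 1252, 1346 and 910.5 normalised reads in WT non-irradiated, 1444 and 789 in WT irradiated, 2069, 1024, 2079 and 1900.3 in KO early and 1364, 1699.6 and 2562 in KO late mice in colon. Ileum had 1018, 986 and 1043 normalised reads in WT non-irradiated, 1340.2 and 831 in WT irradiated, 1842, 463, 811 and 1289 in KO early and 1220.2, 1113 and 1708 in KO late mice. It leaned the other way, at 0.36 ± 0.20 (limma, adjusted p = 0.179), and was called higher in colon with the mouse as a block (adjusted p = 0.0169) and under scaling by column totals. Edem1, a mannosidase-like lectin of the pathway, was at -0.23 ± 0.13 and Selk, a selenoprotein of the ER membrane, at -0.03 ± 0.11.

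Derl3, the third Derlin, stayed near the detection limit and was not tested. It had 3.8, 6.2 and 7.2 normalised reads in WT non-irradiated, 9.1 and 3.7 in WT irradiated, 4.2, 4.5, 9.3 and 4.2 in KO early and 1.2, 1.7 and 3.0 in KO late mice in colon, and 4.0, 7.5 and 7.4 normalised reads in WT non-irradiated, 7.9 and 3.9 in WT irradiated, 15.5, 7.3, 4.0 and 6.3 in KO early and 5.3, 6.7 and 1.9 in KO late mice in ileum. Of the translocon genes, Sec61a1, the channel itself, was lower in colon (-0.79 ± 0.20, limma, adjusted p = 0.00305). Its small subunit Sec61b (-0.19 ± 0.13) and Ssr3, of the translocon-associated complex (-0.37 ± 0.15), did not pass, although Ssr3 did with the block (adjusted p = 0.0311).

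The sensors went separate ways. Ern2, the IRE1β of mucus-secreting epithelium, had 1382, 1309 and 594 normalised reads in WT non-irradiated, 1601 and 649.8 in WT irradiated, 989, 390.0, 409 and 608 in KO early and 490.5, 416 and 426 in KO late mice in colon. Ileum had 627, 346 and 299.9 normalised reads in WT non-irradiated, 635 and 335 in WT irradiated, 193, 160.4, 235 and 336 in KO early and 462, 509 and 346 in KO late mice. Colon exceeded ileum in all 9 WT and KO early mice and in 2 of 3 KO late mice, and the change was 0.96 ± 0.21 (limma, Benjamini-Hochberg adjusted p = 0.000862). Goblet markers, with which Ern2 is usually found, were higher in colon in 6 of 11 genes and lower in 1 (median 0.77). Their sum was not higher in colon, at 49803 to 314693 normalised reads (median 129444) against 48156 to 334554 in ileum (median 161179). Their part in the Ern2 value was not tested.

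Ern1, the widely expressed IRE1α, had 1121, 1502 and 817 normalised reads in WT non-irradiated, 1193 and 899 in WT irradiated, 768, 692, 655 and 898 in KO early and 869.6, 932 and 745 in KO late mice in colon. Ileum had 1126, 1045 and 885 normalised reads in WT non-irradiated, 1100.3 and 1024 in WT irradiated, 767, 1016, 844 and 833 in KO early and 1052, 1028 and 937 in KO late mice. It did not separate the tissues (-0.09 ± 0.11, 95% interval -0.31 to 0.13), nor did Atf6 (0.09 ± 0.11). Eif2ak3, the kinase PERK, was lower in colon (-0.38 ± 0.12, limma, adjusted p = 0.0163), a call lost under scaling by column totals (-0.23, adjusted p = 0.131) and without WT irradiated mouse 59 (adjusted p = 0.0535). Xbp1 had 1642, 1475 and 949.8 normalised reads in WT non-irradiated, 1477 and 1137 in WT irradiated, 1838, 2254, 2510.5 and 2008 in KO early and 1324, 1303 and 1785 in KO late mice in colon. Ileum had 2205, 1522 and 1786 normalised reads in WT non-irradiated, 2504 and 2624 in WT irradiated, 2088, 1394, 1745 and 1794 in KO early and 2144, 1953 and 2932 in KO late mice. The ranges overlapped, and the change was -0.45 ± 0.12 (limma, adjusted p = 0.00455). The counts do not tell spliced from unspliced Xbp1.

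On the PERK arm, Atf4 had 1354, 1189 and 841 normalised reads in WT non-irradiated, 1364 and 1001 in WT irradiated, 1073, 845, 1009.8 and 1172 in KO early and 749, 719.5 and 1126 in KO late mice in colon. Ileum had 1539.9, 1667 and 1386 normalised reads in WT non-irradiated, 1948 and 1693 in WT irradiated, 1979.6, 900.0, 1342 and 1376 in KO early and 2228, 1705 and 1858 in KO late mice. Of the ileum libraries, KO early mice 117 (900.0) and 118 (1342) lay inside the colon range, and Atf4 was lower in colon by 0.67 on the log2 scale (SE 0.13, limma, adjusted p = 0.000242). Trib3, a pseudokinase induced by ATF4 and CHOP, had 8.9, 10.9 and 20.1 normalised reads in WT non-irradiated, 18.9 and 10.4 in WT irradiated, 10.1, 15, 14.0 and 9.1 in KO early and 12.4, 11.7 and 18.7 in KO late mice in colon. Ileum had 55.3, 52.2 and 61.8 normalised reads in WT non-irradiated, 162 and 55.4 in WT irradiated, 184, 30.9, 43.3 and 105 in KO early and 134, 89.3 and 52.2 in KO late mice. All 12 ileum libraries exceeded all 12 colon libraries, with a log2 fold change of -2.45 ± 0.27 (limma, adjusted p = 1.55e-07), the widest of any member. The colon values were at most 20.1 normalised reads, so the size depends on the pseudocount.

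Ppp1r15a, the GADD34 subunit that reverses the translation block set by PERK, had 649.8, 648 and 391 normalised reads in WT non-irradiated, 765 and 308 in WT irradiated, 441, 357, 1079 and 979 in KO early and 518, 989 and 1558 in KO late mice in colon. Ileum had 216, 319 and 106 normalised reads in WT non-irradiated, 342 and 128 in WT irradiated, 268, 148, 206 and 178 in KO early and 284, 199 and 193 in KO late mice. Each of the 12 mice had more in colon than in ileum, and the change was 1.62 ± 0.25 (3.07-fold; limma, Benjamini-Hochberg adjusted p = 1.94e-05). Ddit3, the transcription factor CHOP, had 322, 395 and 222 normalised reads in WT non-irradiated, 406 and 202 in WT irradiated, 217, 163, 262 and 329 in KO early and 213, 389.7 and 373 in KO late mice in colon. Ileum had 431, 352 and 287 normalised reads in WT non-irradiated, 466 and 283 in WT irradiated, 330.3, 196, 236 and 276 in KO early and 442, 324 and 326 in KO late mice. Its difference was -0.22 ± 0.17 (adjusted p = 0.355), so the 3 effectors of this arm stood higher, lower and undecided.

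The other genes of the pathway did not all follow. In a wider list of the translocon, signal peptidase and oligosaccharyltransferase, 16 of 27 were lower in colon and 1 higher (median -0.41), among them Tram1 (-0.75 ± 0.13), with Tusc3 higher (0.51 ± 0.08). Of 22 further degradation genes, 9 were lower and 3 higher, led by the ligase March6 (-1.17 ± 0.13) and the glycanase Ngly1 (0.92 ± 0.10). Folding enzymes and lectins outside the members were split, with 8 of 29 higher and 6 lower, such as the cargo receptor Lman1 (-1.54 ± 0.14) and the BiP exchange factor Sil1 (0.57 ± 0.10). ATF4 and integrated stress response targets were higher in 11 of 26 and lower in 6, with the hormone Stc2 at 2.92 ± 0.24 and the transporter subunit Slc3a2 at -1.96 ± 0.18. Among 19 other sensors and regulators, 7 were lower, led by the ER-bound factors Creb3l3 (-4.69 ± 0.26) and Creb3l2 (-2.23 ± 0.14), and 3 higher. Of 15 cytosolic heat shock genes, 5 were lower and 1 higher.

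Read mouse by mouse, the regional difference varied, and the range of KO early overlapped that of each other group. These medians were not tested. The median over 35 members of log2 colon minus ileum was -0.42, -0.13 and -0.87 in the WT non-irradiated mice, -0.70 and -1.0 in the WT irradiated mice and -0.40, -0.32 and -0.52 in the KO late mice. In KO early it was -0.76 in mouse 100, 0.44 in mouse 117, 0.22 in mouse 118 and -0.15 in mouse 120. The 2 positive medians both belonged to KO early. The median over all genes tested lay between -0.19 and 0.09 in the 12 mice.

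**Figure D2:**
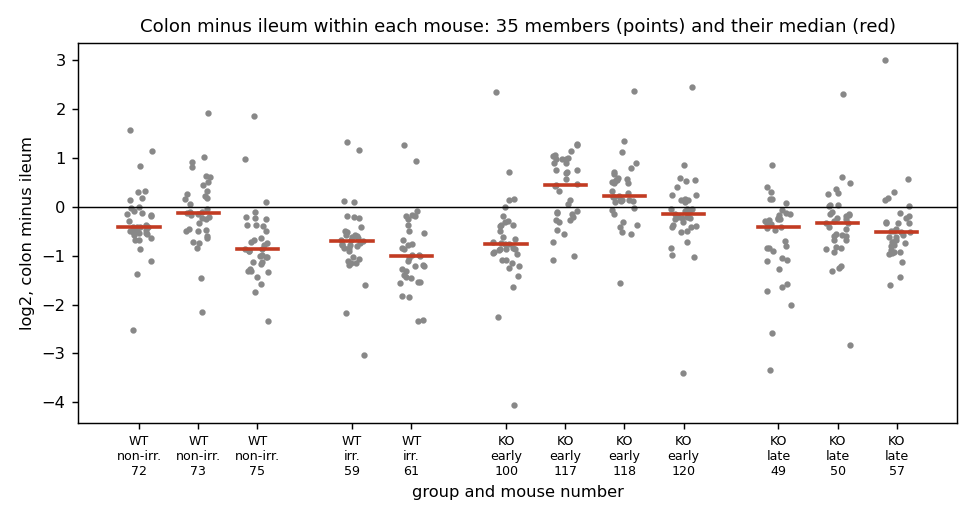
Log2 of colon minus ileum (vertical axis) within each of 12 mice (horizontal axis, by group), with 1 grey point per member tested and the median of 35 members as a red line. KO early mice 117 and 118 have medians above 0 (0.44 and 0.22), and the other 10 mice have medians from -1.0 to -0.13.

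In KO early colon most chaperones had higher values than in WT colon, but no member passed over all genes. KO mice at 2 weeks were set against both WT groups (n = 5), for the early state of the epithelium. No WT mice were labelled with that time, so time and genotype cannot be told apart here. limma called 0 of 35 members, beside 1.08% of 19145 genes, while 21 of 35 members and 2393 of all 19145 genes had an unadjusted p under 0.05. edgeR called 0 members. DESeq2 called 849 genes, of which 8 were members, all higher, namely Manf, Sec61b, Hspa5, Xbp1, Hsp90b1, Calr, Pdia3 and Dnajb11. With receptor reads as a covariate limma called 18 members, all higher, and 1507 genes in all. The median over the members was 0.53, with 25 above 0, against 0.07 over all genes and -0.04 over genes averaging 100 or more.

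**Figure D3:**
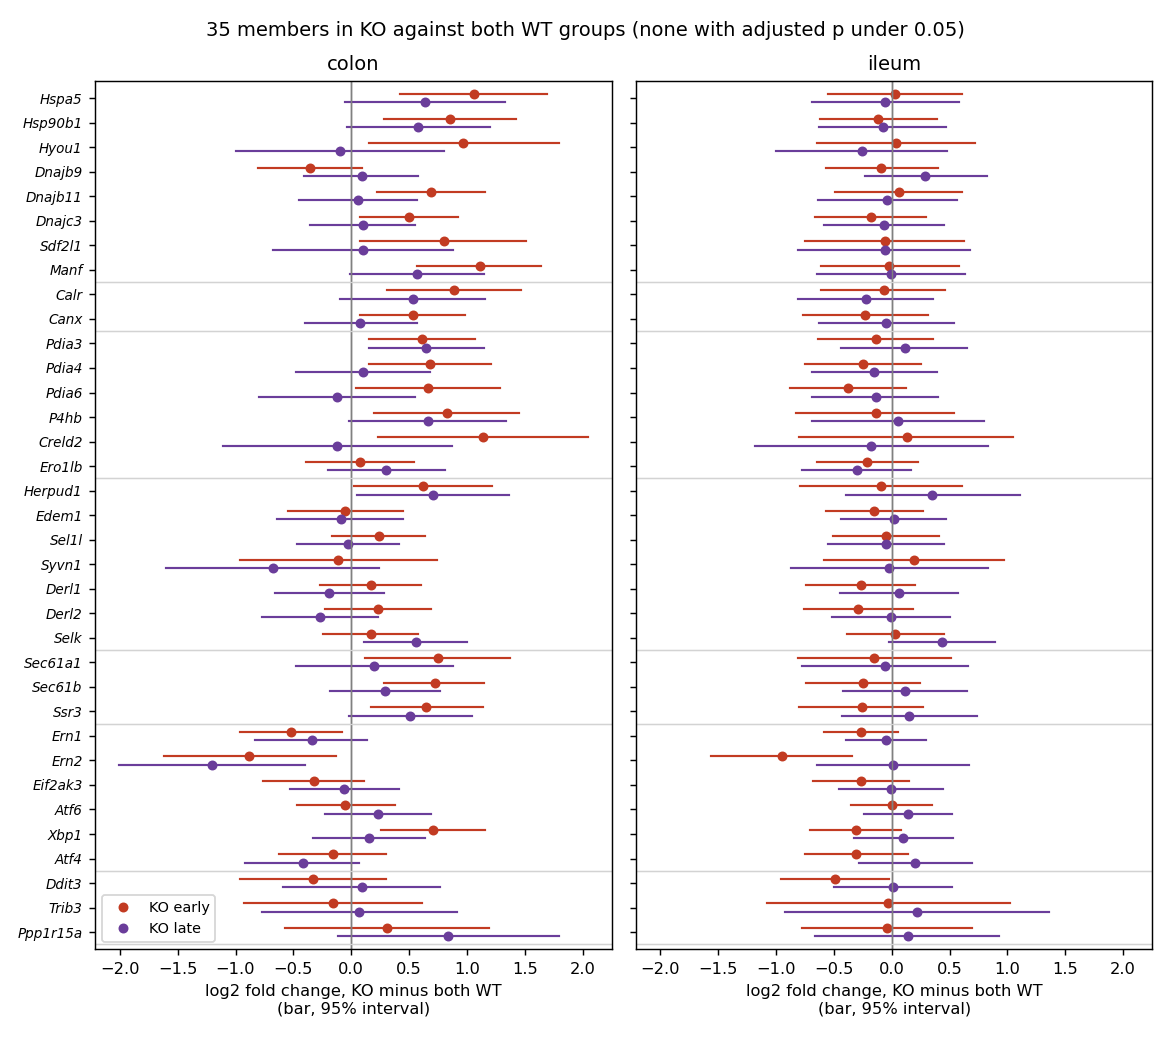
Log2 fold change of KO early (red) and KO late (purple) against both WT groups for 35 members, in colon (left) and ileum (right), with 95% intervals as bars, from limma. In colon the KO early points of the chaperones and disulfide enzymes lie mostly between 0.5 and 1.14, and in ileum most points lie near 0; no point has an adjusted p under 0.05.

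The smallest adjusted p belonged to Manf, which had 618, 466 and 316 normalised reads in WT non-irradiated, 469 and 408 in WT irradiated, 728, 1267, 1103 and 821 in KO early and 586, 540.4 and 904 in KO late mice in colon. All 4 KO early libraries lay above all 5 WT libraries, at 1.11 ± 0.25 (limma, Benjamini-Hochberg adjusted p = 0.0507), and over its alternatives the adjusted p ran from 0.000721 to 0.218. Hspa5, whose colon values stand above, was at 1.06 ± 0.30 (adjusted p = 0.121), with the lowest KO early library (5207) over the highest WT library (5004). Sec61b was at 0.72 ± 0.20 (adjusted p = 0.131). Xbp1 was at 0.71 ± 0.21 (adjusted p = 0.145), from 1838 to 2511 in KO early against 949.8 to 1642 in WT.

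In all, 7 of 35 members were higher in every KO early library than in every WT library, beside 2.12% of all genes, and none was lower in every library, beside 4.29%. The 7 were the chaperones Hspa5, Manf, Dnajb11 and Calr, the disulfide enzyme P4hb, Creld2 and the transcription factor Xbp1. By role, the median was 0.82 for the Hsp70 and Hsp90 group (8 genes), 0.71 for the lectin chaperones (2), 0.67 for disulfide enzymes (6) and 0.72 for the translocon (3). It was 0.17 for degradation (7), -0.24 for sensors and transcription factors (6) and -0.16 for the effectors Ddit3, Trib3 and Ppp1r15a. No test compared the roles. Members with values under 0 included Ern1 (-0.52 ± 0.21), Ern2 (-0.88 ± 0.35), Eif2ak3 (-0.32 ± 0.20), Ddit3 (-0.33 ± 0.29), Atf4 (-0.16 ± 0.21) and, among the Hsp70 and Hsp90 group, Dnajb9 (-0.36 ± 0.21).

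Members with the ER stress response element in the window had a median of 0.66 (9 tested, 8 above 0), against 0.28 for those without it (20 tested, 13 above 0). In colon against ileum these medians were -0.57 and -0.34. Against both WT groups they were equal in KO late colon (0.10 and 0.10) and close in KO early ileum (-0.12 and -0.15). All of these are descriptions of small lists. Against WT irradiated alone (n = 2), KO early colon gave a median of 0.61 over the members (0.26 without WT irradiated mouse 61), with 0 of 35 called beside 0.204% of genes (0.167% higher and 0.0366% lower), and 14 at an unadjusted p under 0.05. Manf (1.13 ± 0.32, adjusted p = 0.324), Sec61b (0.80 ± 0.26) and Calr (0.99 ± 0.35) led. DESeq2 called 1 member (Manf) among 235 genes, edgeR 0 members, and the covariate fit 4 among 265 genes.

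**Figure D4:**
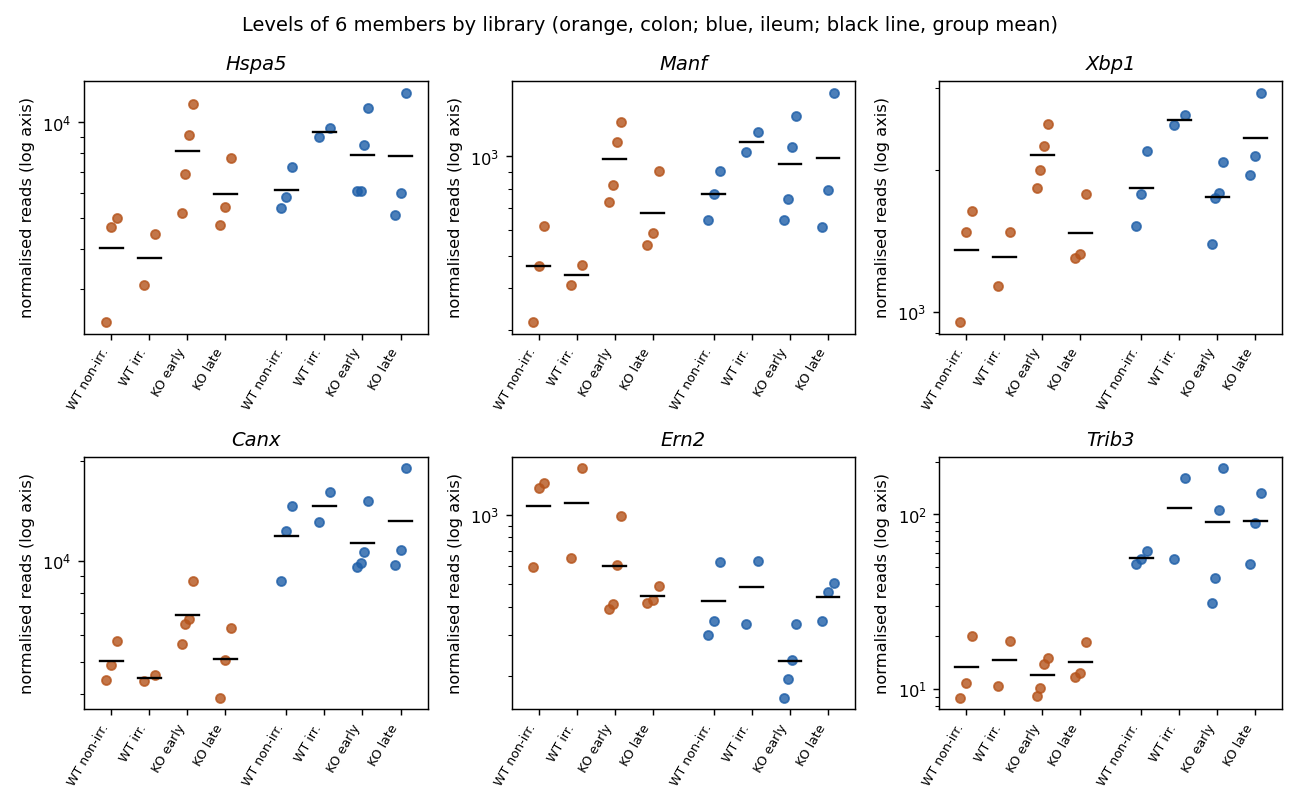
Normalised reads (vertical log axis) of 6 members in the 4 groups of colon (orange) and ileum (blue), with 1 point per library and the group mean as a black line. Hspa5, Manf and Xbp1 are higher in all 4 KO early colon libraries than in all 5 WT colon libraries, Canx and Trib3 are lower in every colon than every ileum library, and Ern2 is lower in all 3 KO late than in all 5 WT colon libraries.

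Some cell type markers also had other levels in the same comparison. Summed goblet markers (11 genes, median log2 fold change -0.91, none called) were 50698 to 160345 normalised reads in KO early colon, against 142010 to 288386 in WT non-irradiated and 86510 to 314693 in WT irradiated colon. Summed myeloid markers were 482 to 1038 in KO early, 508 to 583 in KO late and 273 to 342 in WT colon, and Cd14 was called in KO early (1.80 ± 0.38, limma, adjusted p = 0.035). Summed plasma cell markers were 62.5 to 76.2 in KO early against 31.8 to 116 in WT, so these overlapped. Summed genes of the Paneth list were 1091 to 1525 in KO early colon against 3444 to 9926 in WT colon, with no overlap. Of 7 tested, 1 was called higher, Pla2g2a (2.70 ± 0.27), and 2 lower, led by Ang4 (-4.23 ± 0.68). Which cells of the colon express the genes of this list was not tested. In bulk libraries a change in cell number and a change in RNA per cell cannot be told apart. The part of either in the members' values was not tested.

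KO mice at 8 weeks were set against the same 5 WT mice, for the late state. limma called 0 of 35 members, beside 4.12% of 19145 genes (1.61% higher and 2.5% lower), with 4 at an unadjusted p under 0.05 against 6436 of all genes. edgeR called 0, and DESeq2 called 3 members among 2084 genes, Pdia3 and Selk higher and Ern2 lower. The median over the members was 0.10 (all genes -0.02, genes averaging 100 or more -0.20), and 0.72 with receptor reads as a covariate. Receptor reads were 752 to 1052 per M in KO late colon, above every other colon library, so its values with the covariate are extrapolated. Ern2 was lower in every KO late library (416 to 490.5) than in every WT library (594 to 1601), at -1.20 ± 0.38 (limma, Benjamini-Hochberg adjusted p = 0.0804). Without WT irradiated mouse 61, which leaves 1 mouse in that group, Ern2 was at -1.53. Without WT non-irradiated mouse 75 it was called (-1.40, limma, adjusted p = 0.00884), as the only member among 7360 genes called in that fit. Its sign turned once the receptor reads entered the fit (0.21, adjusted p = 0.765). Goblet markers had a median of -0.93 there, with Klk1 called (-2.63 ± 0.42). Of 7 tested genes of the Paneth list, 2 were called higher, led by Pla2g2a (2.58 ± 0.29), and 2 lower, led by Ang4 (-6.38 ± 0.73). The whole list of 10 summed to 732 to 1154 in KO late against 3444 to 9926 in WT colon. Of 7 colon markers, Slc37a2 (-4.09 ± 0.58) and Slc26a3 (-1.65 ± 0.38) were called, and their list summed to 29980.1 to 66999 in KO late against 68937 to 105173 in WT colon. The part of these in the members' values was not tested.

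Selk had 417, 379 and 309 normalised reads in WT non-irradiated, 346 and 289.9 in WT irradiated, 320.4, 357, 394 and 479 in KO early and 434, 492 and 588 in KO late mice in colon. It was higher in all 3 KO late libraries than in all 5 WT libraries, at 0.56 ± 0.21 (limma, adjusted p = 0.1). Thus 1 of 35 members was higher in every library, beside 5.43% of genes, and 1, Ern2, lower in every library, beside 10.5%. Pdia3 was at 0.65 ± 0.23 (adjusted p = 0.0961) and Herpud1 at 0.71 ± 0.30 (adjusted p = 0.127). With the covariate, and so by extrapolation, Herpud1 (1.82), P4hb (1.6) and Ppp1r15a (2.23) were called. Against WT irradiated alone, 0 of 35 were called beside 1.03% of genes (3 at an unadjusted p under 0.05; edgeR 0, DESeq2 0), led by Ern2 (-1.20 ± 0.47, adjusted p = 0.267), Selk (0.66 ± 0.26) and Pdia3 (0.74 ± 0.29). The median there was 0.16, and 0.77 with the covariate.

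Between KO late and KO early colon, which asked what changed from 2 to 8 weeks, 24 of 35 members had lower values in KO late. The median over the members was -0.33, which turned to 0.14 with the covariate. Over all genes it was 0.03, and over genes averaging 100 or more it was -0.09. Creld2 (-1.26 ± 0.48), Dnajb11 (-0.63 ± 0.25) and Hyou1 (-1.07 ± 0.44) led, each with an adjusted p of 0.438. limma called 0 members beside 0.00522% of genes (5 at an unadjusted p under 0.05; edgeR 0, DESeq2 0). Both KO groups were set against the same WT libraries, so their values stand side by side only, 1.06 and 0.64 for Hspa5, 1.11 and 0.57 for Manf, 0.71 and 0.15 for Xbp1, 1.14 and -0.12 for Creld2 and 0.83 and 0.66 for P4hb in KO early and KO late. WT irradiated against WT non-irradiated colon gave a median of -0.11. Without libraries over 10% Rn45s it was 0.32, with mouse 75 as the only WT non-irradiated library left. Only the irradiated mice carry a chimerism time, so irradiation and chimerism cannot be told apart. limma called 0 of 35 members beside 0% of genes (0 at an unadjusted p under 0.05, and edgeR 0, DESeq2 0). Dnajb9 (-0.40 ± 0.28), Edem1 (-0.34 ± 0.31) and Ero1lb (-0.27 ± 0.29) led.

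Outside the members, the oxidase Ero1l was higher in KO late colon than in both WT groups (1.87 ± 0.36, limma, Benjamini-Hochberg adjusted p = 0.0109) and than in WT irradiated alone (2.11 ± 0.45, adjusted p = 0.0399). It was the only one called among 28 tested folding enzymes. The ER-bound caspase Casp12 was also higher (2.00 ± 0.36, adjusted p = 0.00783), and the antioxidant factor Nfe2l2 was lower (-1.04 ± 0.21, adjusted p = 0.0149), both against both WT groups. No gene of the degradation (22), translocon (27), ATF4 target (26) or heat shock (15) lists was called by limma in that comparison. In KO early colon against both WT groups none of the genes of the 6 lists was called by limma, with medians of 0.42 for the translocon list (12 of 27 at an unadjusted p under 0.05), 0.31 for heat shock, 0.23 for ATF4 targets, 0.19 for folding enzymes, -0.05 for degradation and -0.06 for other sensors.

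The reads of all 36 members together were set against the total without Rn45s. They made up 0.422 ± 0.0398% (SD, n = 5) in WT colon, with 0.388 to 0.486% over the libraries. In KO early colon they made up 0.527 to 0.908%, and in KO late colon 0.511 to 0.623%. Thus all 7 KO colon libraries held a larger share than all 5 WT colon libraries. Without the 5 members with the most reads (P4hb, Canx, Hsp90b1, Hspa5 and Calr) the ranges nearly met. They were 0.228 to 0.277% in WT and 0.28 to 0.42% in KO colon. The share was taken for the members only, so no other gene list stands beside it. Taken singly, 0 of 35 members were higher in every KO than in every WT colon library, beside 1.15% of genes. None was lower in every library, beside 2.39%. The mean log2 value over the members overlapped, at 9.11 to 9.82 in WT, 9.68 to 10.02 in KO early and 9.39 to 9.95 in KO late colon. In ileum the shares of the groups overlapped, with 0.583 to 0.864% in WT, 0.618 to 0.73% in KO early and 0.619 to 0.948% in KO late.

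**Figure D5:**
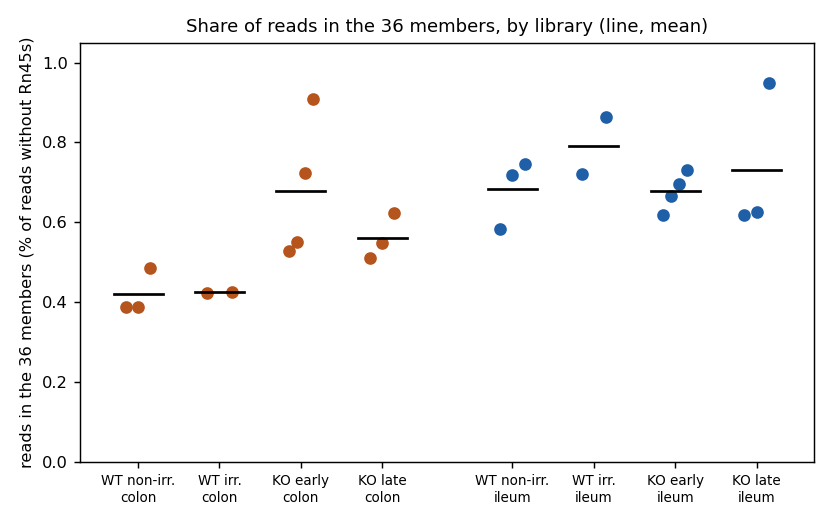
Share of reads in the 36 members (vertical axis, % of reads without Rn45s, from 0) in the 4 groups of colon (orange) and ileum (blue), with 1 point per library and the mean as a black line. The 5 WT colon libraries lie at 0.388 to 0.486% and the 7 KO colon libraries at 0.511 to 0.908%, while the ileum groups overlap.

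In ileum no member was called between KO and WT. For KO early against both WT groups limma called 0 of 35 members, beside 0% of 19122 genes, with 2 at an unadjusted p under 0.05 (edgeR 0, DESeq2 1). The median was -0.14, while genes averaging 100 or more had -0.22. Without libraries over 10% Rn45s it was -0.58, with mouse 117 as the only KO early library left. Ern2 was again lowest, at -0.95 ± 0.28 (limma, Benjamini-Hochberg adjusted p = 0.0848). DESeq2 called it (-0.91, adjusted p = 0.0344) as the only member among 3237 genes called. Without WT irradiated mouse 61, which leaves 1 mouse in that group, Ern2 was at -1.18. Ddit3 was at -0.49 ± 0.22 and Ern1 at -0.27 ± 0.15. Paneth markers (median -1.67) and goblet markers (-0.84) had lower values in the same comparison, none called, and their part in the Ern2 value was not tested.

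For KO late ileum the median was -0.01 against both WT groups and -0.17 against WT irradiated. Without libraries over 10% Rn45s these were 0.35 and 0.20, with mouse 57 as the only KO late library left, the one with the largest share of member reads (0.948%). limma, edgeR and DESeq2 called 0 of 35 members in both, beside 0% of genes by limma, and no member had an unadjusted p under 0.05. The 3 smallest p were those of Selk (0.43 ± 0.21), Ero1lb (-0.30 ± 0.22) and Dnajb9 (0.29 ± 0.24) against both WT groups, and of Hyou1 (-0.49 ± 0.43), Pdia6 (-0.33 ± 0.31) and Hspa5 (-0.36 ± 0.36) against WT irradiated. The 95% interval of Hspa5 against both WT groups ran from -0.69 to 0.58. KO early against WT irradiated had a median of -0.29 (-0.69 with mouse 117 as the only KO early library under that limit), led by Ern2 (-1.05 ± 0.36, adjusted p = 0.165), Xbp1 (-0.56 ± 0.24) and Pdia6 (-0.57 ± 0.30).

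KO late against KO early ileum had a median of 0.18 (0.93 without libraries over 10% Rn45s, which sets mouse 57 alone against mouse 117 alone), led by Ern2 (0.96 ± 0.32, limma, adjusted p = 0.115), Atf4 (0.51 ± 0.23) and Ddit3 (0.50 ± 0.25). WT irradiated against WT non-irradiated ileum had a median of 0.31, with 34 of 35 members above 0. The median was 0.02 over all genes and 0.09 over genes averaging 100 normalised reads or more. With scaling by column totals it was 0.19 over the members and -0.10 over all genes. Selk (0.58 ± 0.26), Xbp1 (0.50 ± 0.25) and Hspa5 (0.61 ± 0.36) led. In these last 3 comparisons 0 of 35 members were called by limma, beside 0% of genes, and 2, 2 and 1 had an unadjusted p under 0.05 in the order given; edgeR and DESeq2 called 0.

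Whether the KO early values differed between the tissues was tested as an interaction. The median difference of the effects, colon minus ileum, was 0.68 over the members, with 29 of 35 above 0, against -0.08 over all genes. Without libraries over 10% Rn45s it was 1.29, with mouse 117 as the only KO early ileum library left. limma called 0 of 35, beside 0.414% of 19588 genes, with 13 at an unadjusted p under 0.05 (edgeR 0, DESeq2 2 among 619 genes). Xbp1 was at 1.02 ± 0.27 (adjusted p = 0.0946), Sec61b at 0.97 ± 0.30 (adjusted p = 0.141) and Manf at 1.12 ± 0.39 (adjusted p = 0.179). With the mouse as a block, since colon and ileum came from the same animals, limma called 715 genes, of which 2 were members. They were Xbp1 (adjusted p = 0.0329) and Sec61b (adjusted p = 0.0435). Over the fits that left out 1 mouse without the block, the adjusted p of Xbp1 ran from 0.0645 to 0.38.

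For KO late the interaction had a median of 0.12 over the members, and limma called 0 of 35 with and without the block, beside 0.602% of genes, with 1 at an unadjusted p under 0.05 (edgeR 0, DESeq2 0). Ern2 (-1.21 ± 0.52, adjusted p = 0.348), Atf4 (-0.63 ± 0.32) and Ero1lb (0.60 ± 0.31) led.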

How the data were processed

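RNA from sorted epithelium of 12 mice was sequenced as stranded total RNA with ribosomal depletion, per the labels' protocols, although the molecule is labelled polyA RNA. The submitters' processing notes name bcl2fastq, HISAT 0.1.6, HOMER and build mm9, and no source used here says whether counting used strand, so reads of overlapping genes may be shared. The authors deposited 1 table of gene counts divided by a size factor per library, a signal in normalised reads. All low values (under 200) were whole multiples, within 0.05, of what 1 read was worth (0.698 to 2.22 normalised reads), which gave back whole reads, 8.32 to 18.7 M a library. No libraries were near copies, with a chi-square per gene of at least 15.41 over 276 pairs.

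Tests were run in R 4.3.3 with limma 3.58.1 on log2(value + 1), for genes that reached 10 normalised reads in 2 or more libraries, with all groups of a tissue in 1 fit, and all 24 libraries for colon against ileum and the interactions. Adjusted p-values are Benjamini-Hochberg over all genes tested in a comparison, over 15 comparisons. The scripts were tested on simulated data. Alternatives were edgeR 4.0.16 and DESeq2 1.42.0 on the recovered reads, scaling by column totals without Rn45s, other pseudocounts and filters, receptor reads as a covariate, only the groups compared, each mouse left out, and the mouse as a block. Leaving out libraries with over 10% Rn45s was chosen after seeing the data. Colon and ileum of a mouse share an animal per the labels, and the correlation of their deviations from the group means was -0.36 to 0.70. The members and the gene lists were chosen with earlier results of these data known. All members could be named. Values per library are given for members called in a comparison, for the 4 higher and 4 lower with the smallest p where more than 8 were called, for 12 further key members, and for Manf and Selk, chosen for their p. Where none was called, the 3 with the smallest p are given, and from each other list at most 2 called genes.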

Additional observations from a re-analysis of the deposited data

Results flagged for a closer look

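In 5 of 72 member and group sets of 4 libraries, 1 library stood apart from the other 3 by more than the 95% limit for a gap, and chance alone gives about 1 in 20. Herpud1 was low in the colon of KO early mouse 117, at 1024 normalised reads against 1900.3 to 2079 in the others. Edem1 and Derl2 were both high in the ileum of KO early mouse 100, at 4052 against 2378 to 2596 and at 663 against 385 to 423. Derl3 (9.3 against 4.2 to 4.5) and Sec61a1 (3313 against 1867 to 2090) were both high in the colon of KO early mouse 118.

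For the KO early interaction, limma with the mouse as a block called 715 of 19588 genes, of which 2 were members. These were Xbp1 (1.02, Benjamini-Hochberg adjusted p = 0.0329) and Sec61b (0.97, adjusted p = 0.0435). Without the block the adjusted p were 0.0946 and 0.141. In colon the KO early mean of Xbp1 was 2153 normalised reads, above WT irradiated (1307) and WT non-irradiated (1356). In ileum its KO early mean was 1755, below WT irradiated (2564) and WT non-irradiated (1838). For Sec61b the same means were 312 against 176.5 and 201 in colon, and 223 against 285 and 243 in ileum.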

How the results depend on the processing

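Of the values for single members under the alternatives, 1017 kept direction and side of the threshold, 30 came to pass it, 9 ceased to pass it and 7 turned in sign. The signs that turned were those of Ern2 in KO late colon with receptor reads as a covariate (0.17 against WT irradiated, 0.21 against both WT groups), and with the same covariate Hyou1 between KO late and KO early colon (0.06) and Ddit3 in KO early ileum (0.01). Without libraries over 10% Rn45s they were Edem1 between the WT groups of colon (0.17) and Pdia6 (0.20) and Hspa5 (0.42) in KO late ileum against WT irradiated. These 3 rest on an arm of 1 library, since mouse 75 is then the only WT non-irradiated colon library and mouse 57 the only KO late ileum library, and mouse 117 the only KO early ileum library. Such a lone library is assumed to vary like the other groups. The causes were not tested.

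No member was called between groups in the fits reported, and the counts moved as follows. For KO early colon against both WT groups DESeq2 called 8 members, the receptor covariate 18, scaling by column totals 3 (Calr, Manf and Xbp1), leaving out libraries over 10% Rn45s 2 (Manf and Hspa5), and a pseudocount of 10 and a minimum of 50 normalised reads 1 each (Manf). Leaving out 1 mouse gave 0 to 1, with Manf called without KO early mouse 100 or WT non-irradiated mouse 75. For KO early colon against WT irradiated DESeq2 called 1 and the covariate 4. For KO late colon against both WT groups DESeq2, the covariate and column totals called 3 each, and leaving out 1 mouse 0 to 1. Against WT irradiated the covariate called 1. For KO early ileum against both WT groups DESeq2 called 1, the covariate 2, and leaving out 1 mouse 0 to 1. For the KO early interaction DESeq2 called 2 and column totals 1.

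With the mouse as a replicate block, colon against ileum had 26 members called (3 higher and 23 lower, against 2 and 18), the KO early interaction 2 and the KO late interaction 0. Leaving out 1 mouse gave 17 to 23 called members between colon and ileum. Counts over all genes moved as well. In colon against both WT groups KO early had 207 genes (849 with DESeq2, 1507 with the covariate, 340 with column totals, 72 to 399 without 1 mouse) and KO late 788 (2084 with DESeq2, 316 without libraries over 10% Rn45s, 255 to 7360 without 1 mouse). Against WT irradiated KO early had 39 (235 with DESeq2, 265 with the covariate, 23 with only the groups compared, 78 without libraries over 10% Rn45s, 3 to 73 without 1 mouse) and KO late 197 (805, 361 with the covariate, 328 with column totals, 11 to 103). KO late against KO early colon had 1 (213 with DESeq2, 0 to 7 under the other settings and 0 to 16 without 1 mouse). In ileum all counts were 0, and DESeq2 called 3237 for KO early against both WT groups (1093 with the covariate, 0 to 2439 without 1 mouse), 209 against WT irradiated (23), 14 for KO late against both, 1377 for KO late against KO early (1604 with the covariate, 2 with only the groups compared) and 2 between the WT groups. The interactions had 81 for KO early (619 with DESeq2, 715 with the mouse block, 5 without libraries over 10% Rn45s) and 118 for KO late (372, 585 and 2). With column totals the median of all genes moved from 0.04 to 0.19 between colon and ileum and from 0.01 to 0.16 between the WT groups of colon, and that of the members from -0.49 to -0.34 and from -0.11 to 0.05. WT irradiated rests on 2 mice, and Derl3 and colon Trib3 lie near the depth limit.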
